A study of Mus musculus with 18 samples.

Results

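Unsorted cells of tumours grown in Pfp/Rag2 -/- mice were compared with the GFP+ cells sorted from tumours of the same kind of host. The unsorted group has 3 libraries and the GFP+ group has 3, of 18 in the series. A gene entered the comparison when its normalised read count was at least 10 in at least 3 of these 6 libraries, which 15324 of the 48795 genes in the table met. The comparison shows what a whole tumour holds beside its fluorescent cells, and what differs between cells that were sorted and cells that were not.

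The tumours grew from GL261 GFP cells, a mouse glioma line that carries green fluorescent protein, injected into C57BL/6 mice of the Pfp/Rag2 -/- genotype. These mice lack perforin, the pore-forming protein with which killer lymphocytes lyse their targets, and Rag2, which rearranges antigen receptor genes, so that T and B cells do not mature, while natural killer cells and myeloid cells are known to remain. Per the labels, tumours were taken from mice with symptoms, 6 of each host, digested with collagenase, filtered and washed. The GFP+ group was then sorted by flow cytometry, and the unsorted group holds fluorescent and other cells together. The series also has unsorted, GFP+ and GFP- cells of wild-type (WT) C57BL/6 hosts given the same line, and cultured GL261 GFP cells that the labels mark as sorted GFP+ cells, with 3 libraries in each group. The transcript of the fluorescent protein was not used here. Whether each library comes from 1 mouse or from several is not in the labels. The p-values therefore measure only the spread between these libraries. All GFP+ tumour libraries were sorted and no unsorted library was, so the act of sorting and the choice of cells cannot be told apart.

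A glioma contains tumour cells with oligodendrocyte progenitor or neural stem cell features, and beside them the cells of the brain it grows in: neurons, astrocytes, oligodendrocytes, blood vessels and microglia, the resident macrophages of the brain. Macrophages from the blood enter the tumour as well. Immediate early genes encode transcription factors and feedback regulators whose transcripts appear within minutes of a stimulus, with no need for new protein, and they are known to respond to the handling of fresh tissue. Heat shock genes encode chaperones that respond to protein stress.

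The 6 libraries held 19172814 to 20041954 reads each, and 22601 to 23358 genes had a read. Values below are normalised read counts, in which 1 read is worth 0.888 to 0.921. In bulk samples, fewer cells of a type and less RNA per cell cannot be told apart. The GFP+ library numbered 1 stood apart. Its correlation with the other two GFP+ libraries across genes was 0.971 and 0.969, against 0.991 between GFP+ libraries 2 and 3, and it was set off on a second principal component with 15.2% of the variance, while the first component, with 74.3%, separated sorted from unsorted cells. Ptprc, the pan-leukocyte antigen CD45, was 1845, 49.6 and 49.7 in GFP+ libraries 1, 2 and 3, and 282, 274 and 349.8 in the unsorted libraries. Counts of the leukocyte lists are therefore given below with and without GFP+ library 1. Unsorted library 1 was the richest in neuronal transcripts. Perforin mRNA, Prf1, was 7.11, 13.6 and 16.2 in the unsorted libraries and 117, 5.51 and 0.921 in the GFP+ libraries, a difference that did not pass the test (adjusted p = 0.943). Rag2 was 4.44, 6.34 and 3.61 against 4.57, 0 and 0, under the filter. The labels do not give the deleted part of either gene, so reads on these transcripts do not check the genotype.

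Differences are given on the log2 scale of the normalised count plus 1, unsorted minus GFP+, with the standard error (SE). A gene counts as called where limma's p, adjusted by Benjamini-Hochberg over all tested genes, was under 0.05. Of the 15324 genes, 4625 (30.2%) were called: 2926 (19.1%) were higher in unsorted tumours and 1699 (11.1%) were lower. At least 2-fold differences were called in 1015 genes that were higher (6.62%) and 322 that were lower (2.1%). The median over all genes was 0.06. The balance of the many small differences rests on scaling: 63.3% of calls were higher with the authors' scaling, 49.4% with edgeR, which uses TMM factors, 51.9% with DESeq2 and 49.2% with quantile normalisation. Without GFP+ library 1, 3218 genes (21.0%) were higher and 1546 (10.1%) were lower. Without GFP+ library 2 or 3 the calls fell to 2954 and 2928.

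The 12 genes of highest difference, among called genes whose groups did not overlap and whose mean in the higher group was at least 100, were mostly neuronal, and several are known from striatal projection neurons. Penk, the precursor of the opioid peptide enkephalin (chromosome 4, 4133531 to 4138819, GRCm38), was 1024, 374 and 359.8 in the 3 unsorted libraries and 0.913, 0 and 0 in the GFP+ libraries. Drd1, the D1 dopamine receptor, was 251, 110.5 and 114 against 0, 0 and 0.921. Scn4b, a sodium channel subunit, was 1662, 522 and 483 against 0, 3.67 and 0.921. All unsorted values of these genes lay above all GFP+ values, unsorted library 1 was the highest for each, and the GFP+ values came to 4 reads or fewer. The log2 differences were 8.70 ± 0.49 for Penk, 6.89 ± 0.46 for Drd1 and 8.49 ± 0.67 for Scn4b, sizes that depend on the 1 added to each count. Gad2, Scg2, Calb1, Elmod1, Gpr158, Trank1, Slc24a2 and Plppr4 were also among the 12, with differences from 6.52 for Plppr4 to 7.90 for Gad2.

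The 12 genes of lowest difference by the same limits were of another kind: Fosb, Cxcl2, Hspa1b, Fos, Hspa1a, Zfp36, Rgs1, Atf3, Nfkbiz, Egr2, Klf2 and Socs3. Among them are AP-1, EGR and KLF transcription factors, a neutrophil chemokine, the inducible HSP70 proteins and feedback regulators of cytokine signals. Of the immediate early list, 20 of 25 genes were lower in unsorted cells and 0 were higher, against 11.1% of all genes lower, and 21 had all unsorted values below all GFP+ values, against 18.8% of all genes. The list median was -1.41, and -1.33 without GFP+ library 1, where 21 were lower. With TMM factors, quantile normalisation, edgeR or DESeq2, 20 to 21 were lower and none was higher. The list was drawn up with results of these data known, so its direction is a description.

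**Figure D1:**
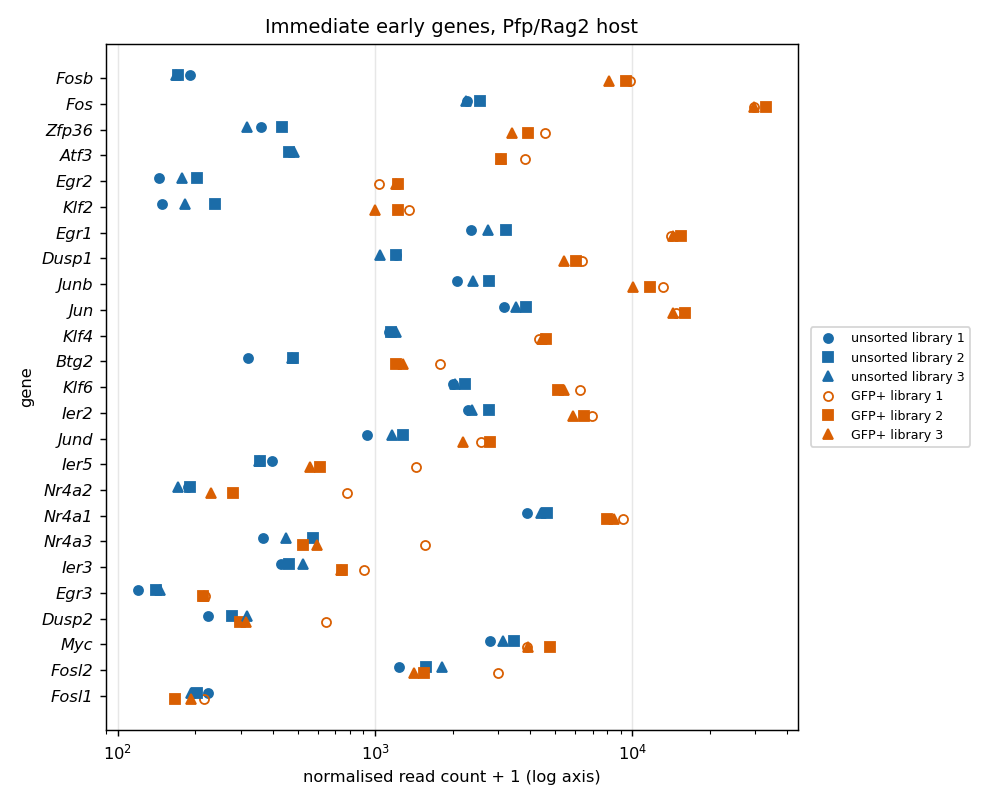
Normalised read counts plus 1 on a log axis for the 25 immediate early genes in each of the 3 unsorted (blue) and 3 GFP+ (orange) libraries of the Pfp/Rag2 host, ordered by difference. From Fosb to Ier5 the 2 groups are separated in every gene, and in Ier5, Nr4a2, Nr4a3 and Dusp2 the open circle of GFP+ library 1 lies far to the right of the other GFP+ libraries.

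AP-1 is a dimer of a Fos and a Jun protein. Fosb (chromosome 7, 19302696 to 19310051, GRCm38) was 190.1, 170.3 and 168 in unsorted cells and 9817, 9435 and 8093 in GFP+ cells. The libraries of each group lay close together and the groups far apart, and the GFP+ mean was 51.8 times the unsorted mean (log2 difference -5.68 ± 0.09, adjusted p = 4.31e-07). Fos was 2278, 2559.9 and 2252 against 29736, 33099 and 29822, a 13.1-fold excess in GFP+ cells. Jun was 3180.4, 3845 and 3529.9 against 14726, 15996 and 14428, or 4.28-fold, and Junb was 2075, 2763 and 2410.1 against 13186, 11664 and 10056, or 4.82-fold. Jund differed by -1.17 ± 0.13. All these Fos and Jun transcripts were higher in every GFP+ library than in any unsorted library. The Fos-like members were different. Fosl1 was 222, 201 and 192 against 216, 165 and 192, and its groups overlapped (adjusted p = 0.559). Fosl2 was 1236, 1569.8 and 1823 against 2994, 1543 and 1420.2, where GFP+ library 1 alone was high (adjusted p = 0.468). Atf3, a stress-induced partner of Jun proteins, was 467, 459 and 484 against 3837, 3070.5 and 3089, 7.09-fold higher in GFP+ cells.

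Among the zinc finger factors, Egr1 was 2353, 3227 and 2736 in unsorted and 14114, 15496 and 14340.0 in GFP+ cells (5.29-fold), and Egr2 was 143, 201 and 177 against 1029, 1225 and 1202 (6.64-fold). Egr3 differed less, at 118, 139.5 and 145 against 216, 214 and 216. Klf2 was 148, 237 and 181 against 1358, 1222 and 1000.2, Klf4 was 1134, 1153 and 1199 against 4350.5, 4608 and 4442, and Klf6 was 2004, 2242 and 2045 against 6266, 5149 and 5403. In each of these 6 genes the groups did not overlap. The nuclear receptors differed in how far GFP+ library 1 set the value. Nr4a1 was 3877, 4652 and 4424 against 9224, 7975 and 8461 and was called (adjusted p = 0.000973). Nr4a2 was 187, 189 and 169.5 against 773, 279 and 228 and was not called (adjusted p = 0.107), though without GFP+ library 1 it was, with a smaller difference of -0.47 (adjusted p = 0.0314). Myc, a driver of growth, was 2790.4, 3472 and 3149 against 3883, 4764 and 3944, the smallest called difference of the list at -0.42 ± 0.10.

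The feedback arm was higher in GFP+ cells too. Zfp36 encodes tristetraprolin, which destabilises short-lived mRNAs, and was 359, 434 and 317 against 4565, 3933 and 3396, a 10.7-fold difference (adjusted p = 6.03e-05). Dusp1, a phosphatase that inactivates MAP kinases, was 1205, 1201 and 1044 against 6377, 6049 and 5406 (5.17-fold), while Dusp2 was 222, 275 and 316 against 641, 298 and 314 and was not called. Btg2, an antiproliferative regulator, was 318, 476 and 473 against 1781, 1206 and 1284. Socs3, the inhibitor of JAK and STAT signals downstream of interleukin-6, was 1667, 1887 and 1728 against 10042, 11155 and 10034, and Nfkbiz, a nuclear regulator of NF-kB, was 194, 201 and 174 against 2284, 1035 and 945. Ier2 was 2287, 2771 and 2369 against 6938, 6483 and 5897. All unsorted values of these called genes lay below all GFP+ values.

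Promoters of 4 of these genes are shown because they hold a site through which immediate early genes are known to be switched on. The motifs were chosen after the values were seen. Upstream sequences are the 250 bases before the annotated start, from RefSeq on build GRCm38.p6, and both strands were searched. A CArG box, the site of serum response factor, was found in 2 of the 20 immediate early genes with an entry and in 1.62% of the 27025 genes of the promoter table. The full cyclic AMP response element, TGACGTCA, was found in 2 of 20 and in 1.77% of all. A match is a description of letters and not evidence of binding. Capitals mark the CArG box in Zfp36 (chr7:28379229-28379478, minus strand) and Egr2 (chr10:67537316-67537565, plus strand), and TGACGTCA in Dusp1 (chr17:26508473-26508722, minus strand) and Btg2 (chr1:134079156-134079405, minus strand). All are printed 5′ to 3′ along the gene.
Zfp36: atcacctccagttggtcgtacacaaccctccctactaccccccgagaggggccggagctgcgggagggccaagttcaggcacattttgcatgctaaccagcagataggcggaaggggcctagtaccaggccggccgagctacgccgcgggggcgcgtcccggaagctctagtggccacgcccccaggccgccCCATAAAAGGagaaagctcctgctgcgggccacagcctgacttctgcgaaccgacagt
Egr2: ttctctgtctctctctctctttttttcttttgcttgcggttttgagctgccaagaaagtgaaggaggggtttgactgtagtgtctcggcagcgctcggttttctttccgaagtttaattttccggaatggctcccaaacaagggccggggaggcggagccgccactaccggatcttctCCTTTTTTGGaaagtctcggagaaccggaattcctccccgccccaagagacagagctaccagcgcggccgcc
Dusp1: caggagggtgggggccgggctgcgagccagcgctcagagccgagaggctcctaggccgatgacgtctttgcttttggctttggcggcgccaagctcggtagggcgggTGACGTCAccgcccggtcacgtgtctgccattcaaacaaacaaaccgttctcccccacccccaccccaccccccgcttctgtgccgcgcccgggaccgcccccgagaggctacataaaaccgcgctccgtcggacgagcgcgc
Btg2: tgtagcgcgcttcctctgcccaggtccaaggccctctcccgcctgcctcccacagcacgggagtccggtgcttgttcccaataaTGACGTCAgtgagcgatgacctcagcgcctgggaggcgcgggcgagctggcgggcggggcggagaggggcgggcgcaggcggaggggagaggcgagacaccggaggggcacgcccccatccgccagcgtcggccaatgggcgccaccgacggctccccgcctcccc

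The other groups of the series give the range of these genes. Fosb was 76.1 ± 9.31 (SD, n = 3) in cultured cells, 91.3 ± 8 in unsorted WT tumours, 18729.5 ± 7546 in WT GFP+ cells and 78604 ± 3193 in WT GFP- cells. Fos was 1789 ± 82, 1720.2 ± 132, 44338 ± 9902 and 75312 ± 7659.8 in the same order. Both transcripts were lowest in culture and in unsorted tumours of either host and were higher in all 3 sorted tumour groups, GFP- cells included. The cultured cells, which the labels also mark as sorted, were at the low level. In the WT host, 22 of 25 immediate early genes were lower in unsorted than in GFP+ cells, where 6.46% of all genes were lower, with a median of -2.30.

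Of the heat shock list, 7 of 13 genes were lower in unsorted cells and 0 were higher, against 11.1% and 19.1% of all genes. The list median was -0.19. Hspa1b was 13.3, 7.25 and 9.02 against 442, 98.3 and 74.6 (-3.82 ± 0.64), and Hspa1a was 8, 3.62 and 2.71 against 246, 34 and 24.9. These neighbouring copies of the inducible HSP70 gene are nearly identical, and how their shared reads were assigned is not given in the sources used here. GFP+ library 1 was the highest in both, and without it both stayed called, at -3.03 and -2.49. Dnajb1, an HSP40 co-chaperone, was 1585, 1748 and 1697 against 3115, 3852 and 4071 (2.19-fold). Smaller differences completed the list: Hsph1, an HSP70 exchange factor, and Bag3, its co-chaperone, differed by -0.48 and -0.36, and the mitochondrial chaperones Hspd1 and Hspe1 by -0.19 and -0.29.

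Inflammatory cytokine transcripts were low in unsorted cells and uneven among GFP+ libraries. Il1b was 33.8, 25.4 and 40.6 in unsorted and 2866, 129.5 and 118 in GFP+ cells. It was not called with all libraries (adjusted p = 0.0609) and was called without GFP+ library 1 (-1.89, adjusted p = 0.00229). Tnf was 15.1, 9.96 and 5.41 against 403, 34 and 23.9 and followed the same pattern (adjusted p = 0.0782, and 0.0453 without that library). Cxcl2, which attracts neutrophils, was 8.88, 5.43 and 1.8 against 1249, 46.8 and 44.2 (-4.63 ± 1.27, adjusted p = 0.0319), and -3.05 without GFP+ library 1. With robust variances its adjusted p was 0.0632. Osm, a gp130 cytokine, was 33.8, 35.3 and 45.1 against 325, 81.8 and 86.6, and Rgs1, a brake on chemokine receptors, was 61.3, 57.1 and 60.4 against 2233, 274 and 258. For all 5 genes every unsorted value lay below every GFP+ value, GFP+ library 1 was the highest, and GFP+ libraries 2 and 3 were close to each other. Il6, at 3.55, 3.62 and 0.902 against 30.1, 7.35 and 2.76, was under the filter. The calls of Cxcl2, Osm and Rgs1 were each lost on leaving out any 1 unsorted library. Of the inflammatory list, which leaves out Cxcl2 and Rgs1, 3 of 13 were lower with all libraries: Nfkbiz, Socs3 and Osm. None was higher, against 11.1% of all genes lower and 19.1% higher. Without GFP+ library 1, 6 were lower and 1 was higher, against 10.1% and 21.0% of all genes. Leukocyte markers were highest in the same library, and their part in these values was not tested.

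Neuronal transcripts had the highest median of the lists described here. Of 19 tested genes, 15 were higher and 0 were lower, against 19.1% of all genes higher, and the median was 3.88. The count was 15 without GFP+ library 1 and 16 without unsorted library 1. Snap25, part of the complex that fuses synaptic vesicles, was 1922, 482 and 407 in unsorted and 19.2, 24.8 and 26.7 in GFP+ cells, a 39.8-fold difference (adjusted p = 0.00188). Rbfox3, the nuclear antigen NeuN, was 364, 109.6 and 95.6 against 11.9, 10.1 and 9.21. Of the genes of GABA synthesis, Gad1 was 616, 333 and 322 against 10.1, 0.918 and 12.9, and Gad2 was 796, 314 and 295 against 0, 0.918 and 1.84. Slc32a1, which loads GABA into vesicles, was 278, 123 and 105 against 1.83, 0 and 0.921. In all 5 genes the groups did not overlap and unsorted library 1 was the highest.

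Glutamatergic markers differed by library. Slc17a7, the vesicular glutamate transporter of cortex, was 452, 29 and 18.9 against 25.6, 42.2 and 29.5, so that unsorted library 1 was high and unsorted libraries 2 and 3 lay at the level of the GFP+ cells (adjusted p = 0.53). Slc17a6, its subcortical counterpart, was 114, 4.53 and 2.71 against 0, 0 and 0 and did not pass the filter. Neurofilament transcripts Nefl, Nefm and Nefh were higher by 3.41, 4.75 and 3.49, and Meg3, a long noncoding RNA of neurons, was 2016, 1036 and 646 against 89.5, 52.4 and 35. Some listed genes did not separate the groups. Map2 was 4719, 4700.4 and 4785 against 4588, 4948 and 4839 (adjusted p = 0.806), and cultured GL261 cells held 1810.5 ± 71.1. Syn1 was 495, 333 and 281 against 408, 382 and 432 (adjusted p = 0.524). Tubb3 and Syt1 were higher by less, 0.79 and 1.68.

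**Figure D2:**
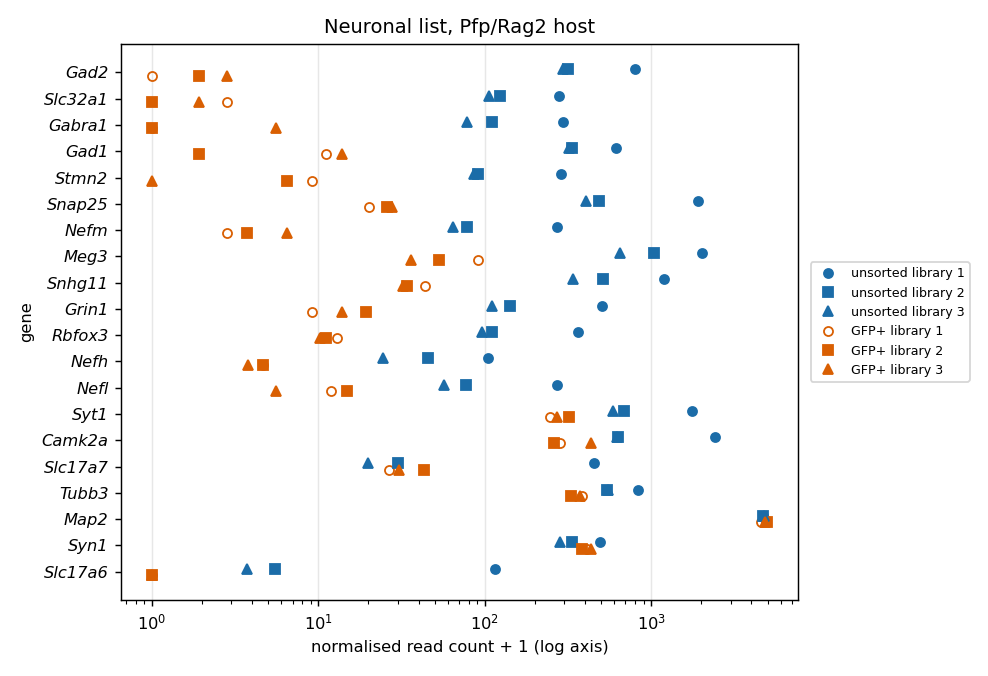
Normalised read counts plus 1 on a log axis for the 20 neuronal genes in the 3 unsorted (blue) and 3 GFP+ (orange) libraries, with untested Slc17a6 at the foot. Unsorted library 1 (circle) is the highest point for most genes, while Map2 and Syn1 coincide in both groups.

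The summed level of the neuronal list in GFP+ libraries 1, 2 and 3 was 46.6%, 48.9% and 49.5% of its unsorted mean, a sum in which Map2 is the largest term. The median marker was left at 6.28%, 5.09% and 4.32%. By the same median the unsorted libraries were at 183%, 67.4% and 50.6% of their own mean, so unsorted library 1 stood above the other two.

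Astrocyte genes had the same direction. In this list 12 of 16 were higher and 0 were lower, against 19.1% and 11.1% of all genes, with a median of 2.40. Aqp4, the water channel of astrocyte endfeet, was 809, 339 and 356 against 29.2, 34.9 and 12 (19.8-fold, adjusted p = 0.00182). Aldh1l1, a folate enzyme used to mark astrocytes, was 393, 243 and 187 against 25.6, 32.1 and 37.8. Gfap, the intermediate filament of reactive astrocytes, was 5363, 2636 and 2539 against 810.0, 755 and 396, and Slc1a2, the main glutamate transporter, was 3644, 1059.8 and 972 against 314, 219 and 269.9. The groups did not overlap in any of the 4, and unsorted library 1 was highest. Slc1a3, the other glial glutamate transporter, and S100b were high everywhere, 3553, 3036 and 3437 against 2266, 2111 and 2420.4 and 2044, 2154 and 2254 against 1572, 1507 and 1459. The median astrocyte marker was left at 19.8%, 12.2% and 19.6% in the GFP+ libraries.

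Choroid plexus and ependymal genes varied widely between libraries. Ttr, the transthyretin secreted by the choroid plexus, was 7512, 2327 and 14.4 in the unsorted libraries and 436, 8.27 and 1.84 in the GFP+ libraries. The groups overlapped, and the difference did not pass the test (adjusted p = 0.205). Foxj1, the master factor of motile cilia, was 96.8, 39.9 and 42.4 against 23.7, 18.4 and 7.37 and was called (1.81 ± 0.51), as were Clic6 (3.42 ± 1.05) and Enpp2, the lysophospholipase autotaxin, at 6155, 2292 and 1014 against 703, 296 and 391. In all, 3 of 6 tested genes were higher, against 19.1% of all genes, and 1 without unsorted library 1. Cultured GL261 cells held 3819 ± 344 of Enpp2 (SD, n = 3). With robust variances in limma the adjusted p was 0.069 for Clic6 and 0.0543 for Enpp2. Ccdc153 was under the filter.

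Oligodendrocyte genes differed by less, and the GFP+ cells held them too. Of 15, 8 were higher and 1 was lower, against 19.1% and 11.1% of all genes, with a median of 0.52. Without unsorted library 1, 5 were higher. Mbp, a main myelin protein, was 7317, 3925 and 3107 against 2903, 1554 and 2212 (adjusted p = 0.0534), and Mog was 420.2, 417 and 435 against 439, 559 and 419, with overlapping groups. Mag was 618, 471 and 411 against 267, 180.0 and 152, Mal was 470.0, 271 and 220.0 against 151, 74.4 and 101, and Ermn was 119.9, 75.2 and 51.4 against 31.1, 4.59 and 3.68. These 3 genes were higher in every unsorted library than in any GFP+ library. Opalin went the other way, at 94.2, 166 and 114 against 216, 174 and 199 (-0.68 ± 0.22), and was not called without GFP+ library 1 (adjusted p = 0.0897).

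**Figure D3:**
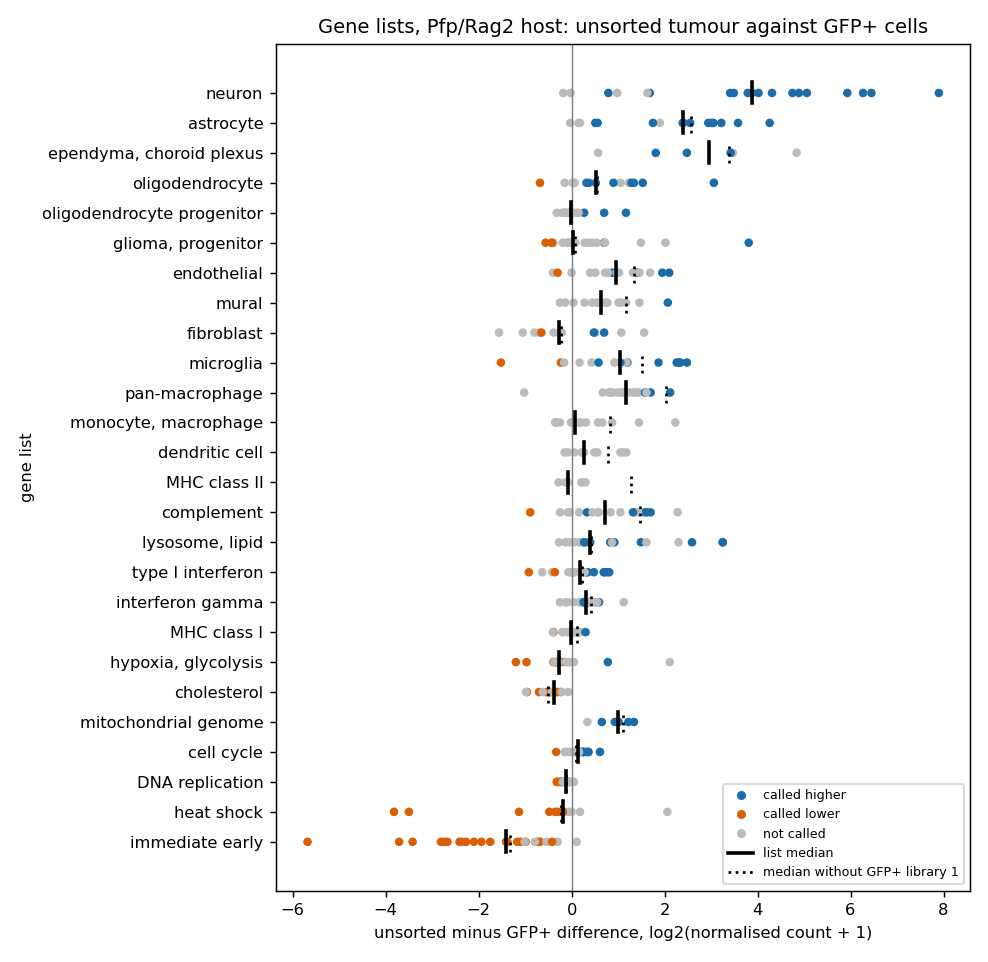
Unsorted minus GFP+ differences on the log2(normalised count + 1) scale for the tested genes of 26 lists, one point a gene, blue where called higher, orange where called lower and grey where not called. Black bars are list medians and dotted bars the medians without GFP+ library 1, which move from 1.16 to 2.04 for pan-macrophage genes and from 3.88 to 3.89 for neuronal genes.

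Blood vessel genes were partly retained in GFP+ cells, and their counts rest on GFP+ library 1. Of 20 endothelial genes, 4 were higher and 1 was lower, against 19.1% and 11.1% of all genes. Without that library 16 were higher and 0 lower, against 21.0% and 10.1%. With edgeR, or without unsorted library 1, 1 was higher. Cldn5, the tight junction protein of the blood-brain barrier, was 574, 760.0 and 1006 against 393, 238 and 254 (2.65-fold, adjusted p = 0.00718). Pecam1, or CD31, was 210.5, 206 and 290.3 against 279, 72.6 and 81, so that its value in GFP+ library 1 lay within the unsorted range (adjusted p = 0.174, and 0.0015 without it). Cdh5, the endothelial cadherin, was 206, 174 and 298 against 197, 69.8 and 91.2 (adjusted p = 0.0861 and 0.00509). Slco1a4, an organic anion transporter, was 303, 206 and 216 against 177, 27.6 and 33.2, and Ly6c1 was 147, 118 and 119 against 83.1, 19.3 and 20.3. Slc2a1, the glucose transporter that tumour cells also use, was the gene that was lower (-0.30 ± 0.09). Ackr1, the chemokine-binding receptor of venules, was 124, 110.5 and 112 against 14.6, 7.35 and 7.37, a 11.8-fold difference that did not rest on that library (adjusted p = 0.000986 and 0.000167).

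Pericytes and smooth muscle showed the same dependence. Rgs5, a pericyte regulator of G proteins, was 1104, 1174 and 1901 against 632, 239.7 and 219 (3.83-fold, adjusted p = 0.0105). It was the single gene of 14 that was called, where 30.2% of all genes were. Without GFP+ library 1, 8 were higher, against 21.0% of all genes. Kcnj8 and Abcc9, the channel subunits of pericytes, were 50.6, 49.8 and 110.0 against 53, 15.6 and 14.7 and 117, 99.6 and 233 against 118, 56 and 43.3. Unsorted library 3 was the highest for all 3 genes. The median mural marker was left at 108%, 49.9% and 37.1% in GFP+ libraries 1, 2 and 3, and the median endothelial marker at 87%, 35.7% and 40.4%.

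Macrophage genes divided the GFP+ libraries. With all libraries 3 of 22 pan-macrophage genes were higher in unsorted cells and none was lower, against 19.1% and 11.1% of all genes. The 3 were Mpeg1, C1qa and C1qc. DESeq2 called 1 of the 22, none of these 3, and edgeR 0, with adjusted p-values of 0.0781 for Mpeg1, 0.0869 for C1qa and 0.0751 for C1qc. Without GFP+ library 1, 21 were higher and 1 was lower, against 21.0% and 10.1% of all genes, with a median of 2.04. Csf1r, the receptor for the macrophage growth factor CSF1, was 934, 745 and 766 in unsorted and 1132, 194 and 180.5 in GFP+ cells (adjusted p = 0.19, and 0.000137 without GFP+ library 1). Aif1, or IBA1, was 129, 107 and 100.1 against 132, 20.2 and 23.9, and Cd68, a lysosomal protein, was 298, 239 and 328 against 339.7, 89.1 and 86.6. In each of these genes GFP+ library 1 lay above all unsorted values and the other GFP+ libraries lay far below them. Spi1, the macrophage transcription factor PU.1, was 118, 123 and 132 against 327, 32.1 and 33.2.

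In the 3 genes called with all libraries GFP+ library 1 lay below every unsorted library. Mpeg1, a pore-forming protein of phagocytes, was 1771, 1602 and 1928 against 1159.8, 242 and 238, and C1qa, a chain of the complement initiator C1q, was 1886, 1438 and 1457 against 1175, 299 and 323. C1qc was 1449.8, 1277 and 1178 against 963, 292 and 286 (1.58 ± 0.44, adjusted p = 0.0334), and 2.16 without GFP+ library 1. Cd14, the lipopolysaccharide co-receptor, ran against the list. It was 329, 399.5 and 371 against 1690.3, 485 and 497, and without GFP+ library 1 it was lower in unsorted cells, with a difference of -0.43 (adjusted p = 0.0181). The list's summed level in GFP+ libraries 1, 2 and 3 was 128%, 25% and 24.5% of the unsorted mean.

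**Figure D4:**
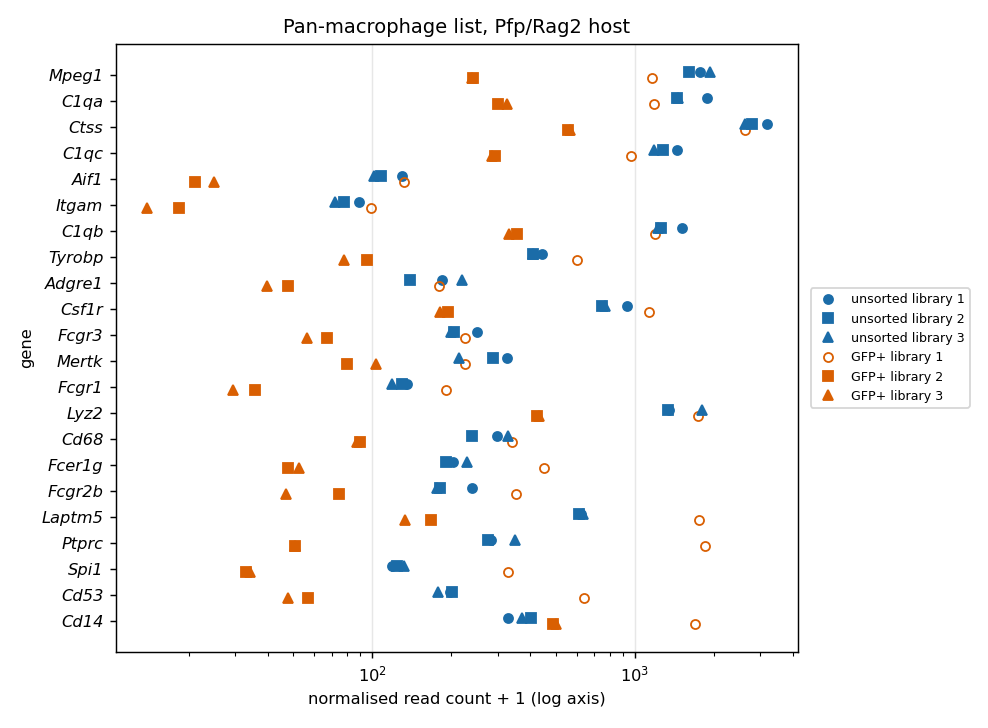
Normalised read counts plus 1 on a log axis for the 22 pan-macrophage genes in the 3 unsorted (blue) and 3 GFP+ (orange) libraries, ordered by difference. The open circle of GFP+ library 1 lies among or above the unsorted points for most genes, and GFP+ libraries 2 and 3 lie below them for all but Cd14.

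The promoter of C1qc is shown because it was the one called gene of the macrophage and microglia lists whose 250 upstream bases held GAGGAAGT, the core site of PU.1. The motif was found in 1 of 16 pan-macrophage genes with an entry, in 0 of 10 microglia genes and in 2.79% of all genes of the table. Capitals mark the match, which lies on the opposite strand of the sequence as printed, at chr4:136892915-136893164 on the minus strand of GRCm38.p6.
C1qc: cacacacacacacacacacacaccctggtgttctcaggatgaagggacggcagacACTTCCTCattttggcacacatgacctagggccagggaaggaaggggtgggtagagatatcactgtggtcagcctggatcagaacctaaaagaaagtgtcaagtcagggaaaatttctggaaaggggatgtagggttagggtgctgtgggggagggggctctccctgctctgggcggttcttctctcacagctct

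Homeostatic microglia genes were called in both directions. Of 15, 8 were higher and 2 were lower, against 19.1% and 11.1% of all genes, and without GFP+ library 1 the counts were 10 and 1. Without unsorted library 1 the first count was 4, and with edgeR 5. Cx3cr1, the fractalkine receptor, was 445, 354 and 332 against 241, 62.5 and 69.1 (3.04-fold, adjusted p = 0.0258, and 0.0601 with edgeR). P2ry12, the purinergic receptor of resting microglia, was 185, 143 and 114 against 96.8, 54.2 and 46. Sall1, the factor that maintains microglial identity, was 179, 128 and 94.7 against 43.8, 18.4 and 18.4, and Fcrls was 466, 408 and 457 against 191, 59.7 and 67.2. Groups did not overlap for these 4 genes.

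Tmem119, a membrane protein often used to mark microglia (chromosome 5, 113793729 to 113800516, GRCm38), went the other way. It was 1460.5, 1729 and 1312 in unsorted and 3404, 4742 and 4889.6 in GFP+ cells, 2.9-fold higher in the GFP+ group (adjusted p = 0.0016). GFP+ library 1, richest in leukocyte transcripts, was the lowest of the GFP+ libraries for it, and the difference without that library was -1.69. In WT tumours Tmem119 was 4858 ± 2183 in GFP+ cells, 3800.4 ± 1543 in GFP- cells and 10149.5 ± 6546 in unsorted cells (SD, n = 3), and in culture it was 103 ± 5.57. Sparc, a matrix protein, was the other listed gene that was lower, at 8127, 7445 and 8047 against 9717, 9016 and 8923. Cultured cells held 66833 ± 510.1 of it.

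Myeloid transcripts of the unsorted tumours were low beside the sorted GFP- cells of the WT host, a fraction that leaves out the GFP+ cells. The shares also depend on the authors' scaling. By it 1 read is worth 1.31 to 1.54 in the WT GFP- libraries and 0.888 to 0.906 in the unsorted Pfp/Rag2 libraries. The median pan-macrophage marker in unsorted libraries 1, 2 and 3 was 2.03%, 1.63% and 1.8% of its WT GFP- mean, and the median microglia marker was 19.2%, 14.8% and 11.4%. GFP- cells of the Pfp/Rag2 host were not analysed here. The 2 sides of these shares differ in host and in sort at once, and the shares of unsorted WT tumours are not given here.

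Monocyte and dendritic cell genes were led by GFP+ library 1. Of 17 monocyte and macrophage genes, 0 were higher and 1 was lower, against 19.1% and 11.1% of all genes. Ccr2, the receptor that brings monocytes into tissue, was 99.5, 126 and 119 against 277, 73.5 and 70.9, and Ly6c2 was 23.1, 26.3 and 32.5 against 329.7, 6.43 and 3.68. Without GFP+ library 1, 10 were higher, against 21.0% of all genes. Ccr2 and Ly6c2 were highest in GFP+ library 1 and lowest in the other two. Itga4, an integrin chain that was 6509 ± 132 in cultured GL261 cells, was the gene that was lower, at 4005, 3828 and 3634 against 4706, 4857 and 4949.5. No gene of the 11 dendritic cell genes or of the 8 MHC class II genes was called with limma. Without GFP+ library 1 the counts higher were 5 and 6, against 21.0% of all genes. Cd74, the invariant chain, was 812, 723 and 1173 against 6204, 399.5 and 329.7, and H2-Aa was 374, 322 and 509 against 2867, 127 and 107. Flt3, the dendritic cell growth factor receptor, was 24.9, 25.4 and 25.2 against 97.7, 8.27 and 10.1. For these 3 genes GFP+ library 1 lay above and the other GFP+ libraries below all unsorted values. Xcr1 and Zbtb46, markers of conventional dendritic cells, overlapped between groups.

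Defining T and B cell markers were at or near 0, and natural killer cell markers were highest in GFP+ library 1. Cd3e and Cd3d, chains of the T cell receptor complex, and Ms4a1, a B cell antigen, had 3 reads or fewer in each of the 6 libraries. Cd8a was 1.78, 0 and 4.51 against 5.48, 1.84 and 1.84. Cd4 was called, at 81.7, 24.5 and 36.1 against 10.1, 2.75 and 0 (3.63 ± 0.88, adjusted p = 0.0214, and 0.00423 without GFP+ library 1). That call was lost without GFP+ library 2 (0.0622), unsorted library 1 (0.0657) or unsorted library 3 (0.0547), as adjusted p-values. Myeloid cells are known to carry CD4 as well, but which cells gave these reads was not tested. Trbc1, a T cell receptor beta constant segment, was 2.67, 5.43 and 6.31 against 139.7, 3.67 and 0. Trbc1 stood out in GFP+ library 1 alone, where Cd3e was 0.913 and Cd3d 2.74. Of natural killer genes, Ncr1 was 8, 6.34 and 10.8 against 54.8, 0.918 and 2.76, Klrb1c, or NK1.1, was 10.7, 6.34 and 18 against 148, 6.43 and 2.76, Eomes was 8, 9.96 and 9.02 against 213, 8.27 and 1.84, and Klrk1, or NKG2D, was 27.5, 28.1 and 29.8 against 331, 5.51 and 2.76. None of the 8 tested genes was called with limma, and 2 were higher without GFP+ library 1, against 21.0% of all genes. The summed level of the 4 natural killer genes with an unsorted mean of at least 20, in GFP+ libraries 1, 2 and 3 was 2250%, 43.1% and 25.3% of the unsorted mean. Neutrophil markers S100a8, S100a9 and Ly6g were under the filter, and Lcn2, lipocalin 2, which glia also make, was 147, 123 and 56.8 against 17.4, 21.1 and 13.8 (6.25-fold). It was the single gene higher of 3 tested on the neutrophil list, against 19.1% of all genes. Without GFP+ library 1, 2 of the 3 were higher, against 21.0% of all genes.

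Stem cell and progenitor genes were mixed. Sox2, a stem cell factor, was 5324, 6229.5 and 5670.4 against 5897, 6348 and 5826 (adjusted p = 0.468), and Nes, the stem cell filament nestin, was 5410.3, 6250.3 and 5610.0 against 6412, 6578 and 5182 (adjusted p = 0.647). Gpr17, a receptor of committed oligodendrocyte progenitors, was 5331, 6949 and 8049 against 6369, 6434 and 5860.3. None of these 3 separated the groups. Of the 12 oligodendrocyte progenitor genes, 3 were higher and 0 lower, against 19.1% and 11.1% of all genes. With TMM factors 1 was lower, and with DESeq2 2 were. Lhfpl3, a progenitor marker, was 1325, 1216 and 1559.8 against 575, 703 and 542 (2.25-fold, adjusted p = 0.00166), and Pdgfra, the receptor that drives progenitor growth, was 2159.7, 1970.2 and 2326 against 1288, 1610.1 and 1112. Vim, the mesenchymal filament vimentin, was lower in unsorted cells, 36559, 40451 and 41415 against 52423, 49273 and 57395. Kit, a receptor tyrosine kinase also listed for mast cells, was 5663, 5726 and 5109 against 3722, 3759 and 3643, while the mast cell protease Mcpt4 and the receptor chain Fcer1a had no read in the unsorted libraries.

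Matrix genes split. Of 28, 3 were higher and 5 were lower, against 19.1% and 11.1% of all genes, and 7 were higher without GFP+ library 1. Col6a1 and Col6a2, chains of the microfibrillar collagen VI, were 1265, 1175 and 1113 against 2566, 2475 and 2358 and 368, 322 and 309 against 1075, 828 and 855, so that GFP+ cells held 2.08 and 2.76 times as much. Col3a1, of fibrillar collagen III, was 11800.4, 9040.3 and 8489.8 against 15396, 14609 and 15474. In these 3 genes all unsorted values were below all GFP+ values. Col1a1, at 1684, 938 and 1096 against 2786, 2223 and 1489, overlapped between groups and was not called (adjusted p = 0.0644). Tnc, tenascin C, differed by -0.56 ± 0.11. On the other side, Timp2, an inhibitor of metalloproteases, was 1997, 1397 and 1352 against 773, 661 and 617 (2.31-fold), Mmp3 was 80, 109.6 and 55.9 against 19.2, 39.5 and 15.7, and Thbs2 was 2122, 2025 and 1904 against 1569.8, 1389.7 and 1526.

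Complement genes were higher in part, by a count that moved with the libraries and the tool. Here 5 of 18 were higher and 1 was lower, against 19.1% and 11.1% of all genes. The count of higher genes was 12 without GFP+ library 1, 1 without unsorted library 1, 3 with TMM factors, 2 with DESeq2 and 1 with edgeR. C3, the hub of the cascade, was 190.1, 136 and 132 against 177, 15.6 and 9.21 (adjusted p = 0.119, and 0.000491 without GFP+ library 1). C3 in GFP+ library 1 lay within the unsorted range and in the other two far below it. C4b was high throughout, 7608, 7456 and 9279.6 against 7875, 6571 and 7311. Properdin, Cfp, was the gene that was lower, at 109, 107 and 116 against 255, 168 and 204.

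Among lysosome and lipid genes 10 of 20 were higher and 0 lower, against 19.1% and 11.1% of all genes, and 16 were higher without GFP+ library 1. Apoe, the lipid carrier of astrocytes and macrophages, was 11125, 8288 and 7094 against 6238, 2166 and 2195 (2.5-fold, adjusted p = 0.0315, and 0.0653 with edgeR). That call was also lost with DESeq2 (adjusted p = 0.0875), with robust variances (0.0663) and on leaving out any 1 library except GFP+ library 1. Lpl, lipoprotein lipase, was 195, 143 and 163 against 42.9, 6.43 and 15.7, and Abca1, which exports cholesterol, was 840.4, 555 and 554 against 283, 60.6 and 66.3. The cathepsins Ctsd and Ctsb were 5476, 4699.5 and 5036 against 3306, 2637 and 2618 and 8692, 7224 and 7868 against 5152, 3920.1 and 3583. The groups did not overlap in these 5 genes, although GFP+ library 1 was the highest GFP+ value for each. Trem2, the lipid-sensing receptor of microglia, was 291, 189 and 224 against 182, 36.7 and 45.1 and passed without that library (adjusted p = 0.0513 and 0.000597).

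Of 8 CXC, CX3C and XC chemokines 2 were higher and 1 was lower, Cxcl2, against 19.1% and 11.1% of all genes, and 4 were higher without GFP+ library 1. Cx3cl1, the neuronal ligand of Cx3cr1, was 684, 216 and 234 against 38.4, 31.2 and 18.4 (12.9-fold), and Cxcl14 was 142, 38 and 49.6 against 21, 7.35 and 7.37. Cxcl10, an interferon-induced attractant of T cells, was 955, 898 and 975 against 1282, 933 and 1168 and was not called, and Cxcl9 was under the filter. Of 10 CC chemokines 1 was lower and 0 were higher, against 11.1% and 19.1% of all genes. Ccl25 was the gene that was lower, at 199, 235 and 195 against 272, 307 and 327. Without GFP+ library 1, 3 of the 10 were higher, against 21.0% of all genes. With quantile normalisation 3 were lower, against 15.3% of all genes. Ccl3, Ccl5 and Ccl2 reached 389.9, 537 and 104 in GFP+ library 1 but at most 33.1, 53.3 and 19.3 in the other two. The macrophage growth factors Csf1 and Il34 were not called (adjusted p = 0.268 and 0.563), and without GFP+ library 1 Csf1 was higher (0.59, adjusted p = 0.00676). Of 11 genes of myeloid growth 2 were higher and 1 was lower, near the 19.1% and 11.1% of all genes. Without that library 8 were higher, against 21.0% of all genes. With all libraries Tgfbr1 and Tgfbr2, both receptors of TGF-beta, were higher by 0.58 and 0.43 and Flt3l, the dendritic cell growth factor, was lower, with a difference of -1.12.

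Some interferon-induced genes were higher in unsorted cells. Of 24 type I genes 7 were higher and 2 were lower, with a median of 0.18, near the 19.1% and 11.1% of all genes. In the WT host 0 were higher and 4 were lower, where 10.3% and 6.46% of all genes were. Ifit1, which binds foreign RNA ends, was 3913, 3885 and 3505 against 2574, 1963 and 2385 (1.63-fold, adjusted p = 0.00349), and Isg15, a ubiquitin-like modifier, was 3638, 3654 and 3765 against 3009, 2462 and 2475. Oas2, a sensor of double-stranded RNA, was the reverse, 1001, 1225 and 1429 against 2625, 1814 and 2489.5. Of 19 interferon gamma genes 7 were higher and 0 were lower, against 19.1% and 11.1% of all genes. All 7 were guanylate-binding proteins or immunity-related GTPases. With TMM factors, edgeR or DESeq2, or without unsorted library 1, 4 were higher. Both of the following separated the groups: Iigp1 was 1560.0, 1465 and 1481 against 1055, 795 and 1169.7 and Irgm2 was 2641, 2636 and 3022 against 2096, 1651 and 2058. Irf1, an interferon-induced transcription factor, overlapped between groups. Near-identical members of these families can share reads.

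Few MHC class I genes were called. Of 21, 1 was higher and 1 was lower, against 19.1% and 11.1% of all genes, with a median of -0.01. Without GFP+ library 1, 4 were higher, against 21.0% of all genes. B2m, the light chain, was 15091, 15479 and 16777 against 16476, 11542 and 13808, and H2-K1 was 13016, 12209 and 12705 against 16979, 10909.8 and 12111. Both overlapped between groups, and without GFP+ library 1 B2m was higher (0.32, adjusted p = 0.0399). Nlrc5, their transactivator, was lower in unsorted cells (-0.39 ± 0.09), and Erap1, a peptide trimmer, was higher (0.30 ± 0.07). Of the checkpoint list, Cd47, the signal that restrains phagocytosis, Cd200 and Lag3 were higher, at 0.39, 1.25 and 1.52. That is 3 of 15, near the 19.1% of all genes. Without GFP+ library 1, 8 were higher, against 21.0% of all genes. The call of Lag3 (adjusted p = 0.0343, and 0.000518 without GFP+ library 1) was lost with edgeR (adjusted p = 0.0733) and on leaving out any 1 of the other 5 libraries. Cd274, or PD-L1, was 208, 192 and 207 against 596, 136 and 196.

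Hypoxia and glycolysis genes that were called were mostly lower in unsorted cells. Of 21 hypoxia and glycolysis genes 10 were lower and 1 was higher, against 11.1% and 19.1% of all genes. Without GFP+ library 1, 5 were lower, against 10.1% of all genes. Vegfa, the vascular growth factor, was 2255, 2033 and 2711 against 5076, 4648 and 3955 (1.96-fold higher in GFP+ cells), and Car9, a hypoxia-induced carbonic anhydrase, was 217, 100.5 and 139.8 against 276, 475 and 285. The called glycolytic enzymes differed by little, between -0.39 for Eno1 and -0.22 for Pkm. Adm, adrenomedullin, was the gene that was higher, at 96, 81.5 and 111 against 64.8, 61.5 and 42.4 (adjusted p = 0.0377, and 0.356 with quantile normalisation). That call was also lost with edgeR (adjusted p = 0.0574), with DESeq2 (0.0533) and on leaving out any 1 library except GFP+ library 1.

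Cholesterol genes were lower in 8 of 19 cases and higher in 0, against 11.1% and 19.1% of all genes, with a median of -0.37. Without GFP+ library 1, 13 were lower, against 10.1% of all genes. With all 18 libraries in 1 fit the count was 1, and with quantile normalisation or DESeq2 11. In the WT host 0 of 19 were lower, with a median of 0.10, and the interaction of the difference with host was called for 0.

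Transcripts of the mitochondrial genome were higher in unsorted cells in 6 of 7 tested genes, against 19.1% of all genes, with a median of 1.00. The count was 6 with TMM factors, quantile normalisation and edgeR as well. mt-Nd1, a subunit of complex I, was 25578, 19355 and 18513 against 12053, 9624 and 9968, and mt-Cytb, of complex III, was 53327, 42280.2 and 36412 against 31827, 25725 and 25898. mt-Co1, of complex IV, was 99551, 88650.2 and 74082 against 74795, 66227 and 64991 and was not called with limma (adjusted p = 0.101). Unsorted library 1, richest in neuronal transcripts, was the highest for all 3, and the part of neuronal RNA in these values was not tested.

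Proliferation genes differed by little. Of 33 cell cycle genes 9 were higher in unsorted cells and 1 was lower, with a median of 0.13, against 19.1% and 11.1% of all genes. Without unsorted library 1 the counts were 3 and 0. With TMM factors 5 were higher, and none was called with all 18 libraries in 1 fit. In the WT host the counts were 4 and 1. Cenpf, a kinetochore protein, was 3428, 3046 and 3777 against 2142, 2207 and 2345 (1.53-fold, adjusted p = 0.00292), Kif11, the spindle kinesin Eg5, was 2220.1, 1852 and 2272 against 1611, 1577 and 1755 (adjusted p = 0.0209, and 0.0629 without unsorted library 1), and Mki67 was 8162, 7316 and 9801 against 6586, 7218 and 7115 (adjusted p = 0.0976). Of 27 replication genes 8 were lower and 0 higher, against 11.1% and 19.1% of all genes, with a median of -0.12. Without GFP+ library 1, 3 were lower, against 10.1% of all genes, and 4 were without unsorted library 1. Mcm2, of the replicative helicase, was 2939, 2794 and 3194 against 3527, 3623 and 3690.4, and Cdt1, which loads it, was 1564, 1541 and 1700.5 against 1987, 1966 and 2049. The 9 cell cycle genes that were higher include Kif11, whose upstream sequence is shown because it holds TTTGAA, the cell cycle homology region through which G2 genes are known to be repressed. That motif was in 8 of 25 cell cycle genes with an entry and in 18.3% of all genes, and CCAAT was in 19 of 25 and in 37.5%. Capitals mark TTTGAA on the opposite strand, at chr19:37376132-37376381 on the plus strand of GRCm38.p6.
Kif11: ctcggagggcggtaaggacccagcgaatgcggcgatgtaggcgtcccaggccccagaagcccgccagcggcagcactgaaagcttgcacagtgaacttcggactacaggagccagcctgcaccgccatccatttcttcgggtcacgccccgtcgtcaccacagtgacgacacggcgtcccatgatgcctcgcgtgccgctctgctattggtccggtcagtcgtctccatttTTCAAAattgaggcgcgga

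The remaining lists are set beside the 19.1% of all genes that were higher and the 11.1% that were lower. Without GFP+ library 1 these shares were 21.0% and 10.1%. Of 20 glioma progenitor genes 2 were higher and 3 lower, and 5 were lower with TMM factors. The fibroblast list had 2 higher and 1 lower of 13, and the ATF4 stress list 1 and 3 of 21. Among 15 phagocyte receptors Tlr4, which senses lipopolysaccharide, was higher, at 530.4, 592 and 668 against 457, 415 and 441, and 12 were higher without GFP+ library 1. Of 10 chemokine receptors 2 were higher, Ackr1 and Cx3cr1, and 6 without that library. Of 7 erythroid genes 1 was lower, and 5 were with quantile normalisation, so that little can be read from their direction.

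The same comparison in the WT host shares no library with this one. Of the 1015 genes higher by at least 2-fold in unsorted Pfp/Rag2 tumours, 830 were tested in the WT host, where 626 were higher and 0 were lower, against 10.3% of all genes higher. Of the 322 that were lower, 287 were tested, and 144 were lower and 1 was higher, against 6.46% of all genes lower. Across 14725 genes tested in both hosts the differences had a Pearson r of 0.817, a description over genes that are not independent. Neuronal genes had a median of 4.02 in the WT host, astrocyte genes 2.33, endothelial genes 2.68 and pan-macrophage genes 2.20.

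**Figure D5:**
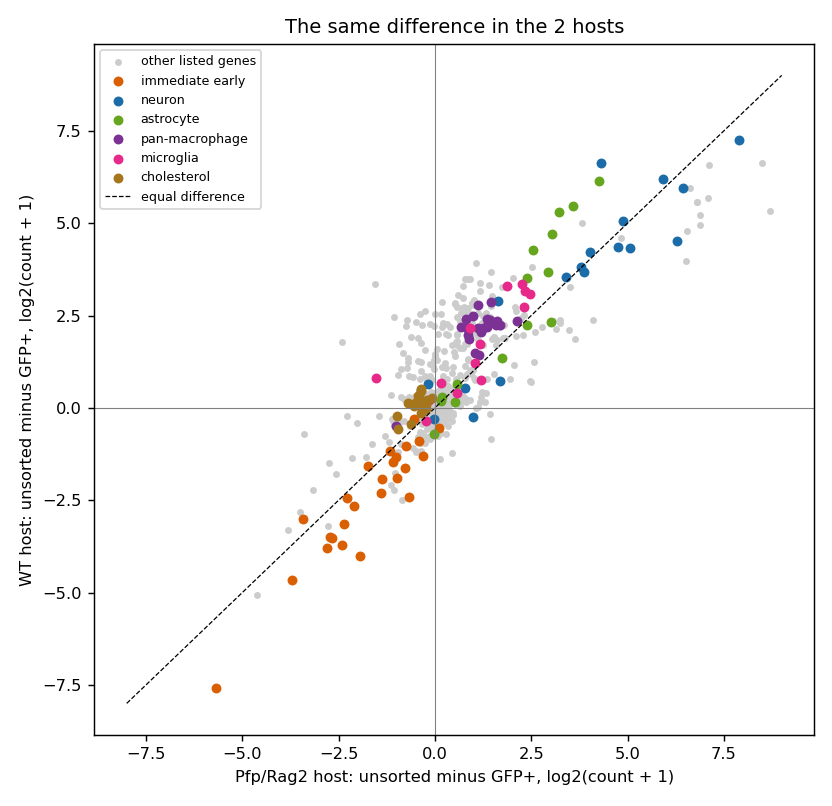
Unsorted minus GFP+ differences on the log2(normalised count + 1) scale in the Pfp/Rag2 host (horizontal) and the WT host (vertical) for 601 listed or named genes tested in both, with 6 lists in colour and the line of equal differences dashed. Immediate early genes lie at the lower left, with Fosb at -5.68 and -7.57, and neuronal genes at the upper right.

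The difference itself differed between hosts in 151 of 16161 genes (0.934%) when tested as an interaction, and this count rests on single libraries: it was 0 without Pfp/Rag2 GFP+ library 1, where 2663 genes had an unadjusted p under 0.05, and 1105 without WT unsorted library 1. Ptn, the growth factor pleiotrophin, was 1078, 895 and 1135 against 901, 884 and 920.1 in the Pfp/Rag2 host and 511 ± 105 against 113 ± 29.3 in the WT host (interaction -1.99 ± 0.26, adjusted p = 0.0231). Il33, an alarmin of glia, was 285, 211 and 220.0 against 93.2, 84.5 and 82.9 here and 160.2 ± 40.6 against 178 ± 27.9 in the WT host (1.61 ± 0.29, adjusted p = 0.0346). Fosb was lower in unsorted cells in both hosts, by more in the WT host (1.89 ± 0.35, adjusted p = 0.0394).

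Sorted GFP- cells of the WT host were set beside these genes. Of the 1015 genes higher by at least 2-fold in unsorted Pfp/Rag2 tumours, 417 were under the filter in the WT sorted cells. Of the 598 tested there, 388 were higher in GFP- than in GFP+ cells and 77 were lower, against 42.7% and 33.7% of all genes. Penk was 636 ± 36.6 in GFP- cells, but Gad2 and Snap25 were 3.46 and 13.1 on average, and 0 and 6.82 in WT GFP+ cells. In unsorted WT tumours both genes were higher, at 168 and 209. These neuronal transcripts were thus high in unsorted tumours of both hosts and low in both sorted WT fractions, and Penk was high in the GFP- fraction. The genes that were higher in unsorted Pfp/Rag2 tumours and lower in WT GFP- than GFP+ cells were led by Phyhip, Cadps, Syn2, Gng7, Lcn2 and Enpp2. Phyhip, Cadps and Syn2 are known from neurons. Cultured GL261 cells held 681 ± 38 of Gng7 and 3819 ± 344 of Enpp2 (SD, n = 3). Phyhip was 991, 311 and 316 against 23.7, 20.2 and 35.9 here and 8.43 ± 6.12 in GFP- cells. Of the 322 genes that were lower, 298 were tested in the WT sorted cells. There 125 were higher and 68 lower in GFP- cells, against 42.7% and 33.7% of all genes, so the share higher was near that of all genes. The 6 of largest difference among those higher there were Fosb, Cxcl2, Hspa1b, Fos, Hspa1a and Zfp36.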

How the data were processed

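RNA was measured by sequencing. Per the labels' protocols, RNA was extracted with a NucleoSpin kit, mRNA was isolated and directional libraries were made with NEBNext kits, and a NextSeq 500 was used. The submitters' processing notes name STAR 2.5.2b, GRCm38 and DESeq2. For the read counter, annotation release, use of strand and treatment of reads shared by near-identical genes, the sources used here give nothing. The values are the authors' deposited normalised counts, a signal per gene scaled by size factors. Dividing each by its library's step gave whole reads for 100% of values within 0.05. Read totals come from these.

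Log2(value + 1) was fitted with limma 3.58.1 in R 4.3.3 on the 6 libraries for genes at 10 or more in 3 libraries, with Benjamini-Hochberg adjustment over all tested genes and calls under 0.05. The comparison of hosts used an interaction term over 12 libraries. The fits were also run on simulated counts, where few genes were changed and no library was made to stand apart, unlike these data. The outcome is not given here and cannot vouch for the calls above. edgeR 4.0.16 and DESeq2 1.42.0 on the recovered reads were alternatives and called 4323 and 4411 genes. Other alternatives were the pseudocount, the filter, the scaling, the variance model, the replicate block and leaving out each library.

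Named genes were the 12 highest and 12 lowest differences among called genes with no overlap and a mean of at least 100, members of 41 lists, Prf1 and Rag2, the 4 highest and 4 lowest interaction terms, and 6 genes in each direction that differed the other way in WT GFP- cells. Some genes that the rule names are not reported here. Genes and lists were chosen with earlier results of these data known. Symbols and coordinates are from GENCODE vM21 (48435 of 48795 identifiers matched), and promoters from RefSeq on GRCm38.p6. Shares of a marker list use members with an unsorted mean of at least 20.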

Additional observations from a re-analysis of the deposited data

Results flagged for a closer look

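The unsorted minus GFP+ difference differed between hosts in 151 genes by an interaction test in limma at an adjusted p under 0.05, and in 0 genes without GFP+ library 1 of the Pfp/Rag2 host, where 2663 had an unadjusted p under 0.05 and where edgeR and DESeq2 were not run. With all libraries edgeR called 70 and DESeq2 1194. By the rule for naming genes, the highest terms, Pfp/Rag2 minus WT on the log2 scale, were 1.89 for Fosb, 1.66 for Irs1, 1.61 for Il33 and 1.52 for Plag1. The lowest were -4.19 for Mmp13, -3.10 for Fhl1, -2.93 for Mgp and -1.99 for Ptn.

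Mmp13, a collagenase, was 50.6, 19.9 and 32.5 in unsorted and 332, 140.5 and 116 in GFP+ cells of the Pfp/Rag2 host, and 1011 ± 566 and 318 ± 192 (SD, n = 3) in the WT host. Fhl1, a LIM domain protein, was 394, 442 and 298 against 587, 538 and 743, and 122 ± 24.1 against 25.5 ± 16.6 in the WT host. Mgp, matrix Gla protein, was 147, 147 and 119.9 against 225, 208 and 125, and 112 ± 21.5 against 21.8 ± 16. By group means all 3 were lower in unsorted than in GFP+ cells in the Pfp/Rag2 host and higher in the WT host. Irs1, an adaptor of insulin signals, was 362, 370.5 and 352 against 226, 290.2 and 280.0 in the Pfp/Rag2 host and 238 ± 46.3 against 549.7 ± 105 in the WT host. Plag1, a zinc finger factor, was 281 against 261 on average in the Pfp/Rag2 host, and 237 ± 47.1 against 618 ± 48.4 in the WT host.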

How the results depend on the processing

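The count of 4625 genes stayed within 1.5 times under most alternatives and was 2582 with all 18 libraries in 1 fit. Leaving out 1 library gave 2928 (without GFP+ library 3) to 4764, and with the filter applied anew 2586 (without unsorted library 2), 2823 and 2868 (without GFP+ libraries 3 and 2). The 1337 genes at 2-fold or more were 672 with a filter at 50 and 327 with limma's treat at 2-fold, and leaving out 1 library gave 675, 714 and 802 with the filter applied anew for unsorted libraries 1, 2 and 3, and up to 1776. The 151 genes that differed between hosts were 1194 with DESeq2, 270 with quantile normalisation, 298 with a filter at 50, 76 with TMM factors, 70 with edgeR and 61 with no filter. Leaving out 1 library gave 0 to 1108, with 0 without GFP+ library 1 of the Pfp/Rag2 host, 1 without its unsorted library 1, 2 or 3, its GFP+ library 3 or WT GFP+ library 1 or 2, 3 without WT unsorted library 3, 40 without GFP+ library 2, 542 without WT unsorted library 2, 759 without WT GFP+ library 3 and 1108 without WT unsorted library 1, each with the filter applied anew (1105 in the last case with the genes kept). Cd74 was not called with all libraries. Without GFP+ library 1 its difference changed sign, to 1.28, and was called (limma, adjusted p = 0.0038). Over single libraries left out the difference of Cd74 ran from -0.83 to 1.28. As the median over markers in place of the sum, the share left in GFP+ cells was 5.23% for neuronal, 17.2% for astrocyte, 54.4% for endothelial, 64.9% for mural and 43.6% for microglia genes, against 48.3%, 44.7%, 91.6%, 95.6% and 112% by the sum. Replicate numbers were not treated as pairs, and the labels do not say whether they mark the same tumour. Deviations of same-numbered libraries correlated at 0.132, 0.163 and -0.035, and those of different-numbered libraries at -0.180 to 0.0988. With 3 libraries a group these values cannot settle whether the libraries are paired. With the replicate block 3820 genes were called in the Pfp/Rag2 host, and 0 differed between hosts, with 2935 at an unadjusted p under 0.05. The cause of these changes was not tested. Over the named genes, 3647 values kept their call and direction under an alternative, 91 gained a call and 377 lost it. Depth limits genes near 3 reads, and 3 libraries a group limit all counts.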
